A study of Homo sapiens with 27 samples.

Results

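MV411 is a human acute myeloid leukaemia line with monocytic features that carries a KMT2A fusion gene. The comparison described here set MV411 cells with the first of a pair of CARM1 short hairpin RNAs (hairpin 1) against MV411 cells with a scramble hairpin. It was taken directly from the sample labels and holds 6 of the 27 libraries of the series, 3 with hairpin 1 and 3 with scramble. Both groups received a constitutive lentiviral vector and differed in the hairpin it carried, and RNA was taken on day 3. A further 3 MV411 libraries with CARM1 hairpin 2, and libraries of the lines MOLM13 and SKNO1 with the same hairpins, were used where the response to hairpin 1 was set against another one. The labels describe no untransduced cells and no rescue with hairpin-resistant CARM1, and each line stands for 1 patient's leukaemia.

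CARM1, also called PRMT4, is an arginine methyltransferase that places asymmetric dimethyl marks on histone H3 and on other chromatin, transcription and splicing proteins. It was first described as a coactivator of nuclear receptors, and in blood cells it modifies factors such as RUNX1. Leukaemia cells of this kind divide continuously and are held at an immature stage. The genes read first are therefore those of DNA replication and mitosis, those of monocyte and macrophage maturation, and those that respond within minutes to growth factors and stress.

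The 6 libraries held 30993021 to 39182298 expected counts each, and 17816 genes passed the filter on low counts. All 10 genes used to check the identity of the line, among them the myeloid genes CD33, SPI1 and LYZ and the leukaemia genes FLT3, MEIS1 and HOXA9, were detected in every library. Marker lists of other cell types were low: in summed CPM (counts scaled to the size of the library by the TMM method), B cell markers ranged from 1.78 to 2.84, erythroid markers from 12.4 to 16.2 with scramble and from 6.53 to 9.08 with hairpin 1, and megakaryocyte markers from 7.51 to 11.9 with scramble and from 4.03 to 8.01 with hairpin 1. The T and NK cell list (150 to 191 CPM) was carried by CD4 and NKG7, with CD3D, CD3E and CD3G at 0 in all 6 libraries, and the fibroblast list (101 to 172 CPM) by VIM, with DCN, LUM and COL3A1 at 0. Mitochondrial ribosomal RNA took 26.2% ± 1.47 (SD, n = 3) of the counts with scramble and 32.4% ± 2.14 (SD, n = 3) with hairpin 1. When those RNAs and abundant structured RNAs were left out of the scaling, 1151 genes were called in place of 1159. In bulk RNA, fewer cells of a kind and less RNA per cell cannot be told apart.

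Among the libraries used for comparison, a pair went against its labels. Between hairpins, 244 genes were higher with hairpin 2 and 363 lower with hairpin 2 in both MV411 and SKNO1. In the MOLM13 libraries numbered 2 and 3, the first set was higher with hairpin 2 by a median of 0.30 and 0.92 on the log2 scale (169 and 237 of 244 genes). In the MOLM13 libraries numbered 1 the same set had a median of -0.83, with 10 of 244 genes higher in the library labelled hairpin 2. The second set had medians of -0.46 and -0.56 in the libraries numbered 2 and 3 (312 and 349 of 363 genes lower) and 0.39 in those numbered 1 (40 of 363). Results that rest on the libraries labelled MOLM13 hairpin 1 and hairpin 2 replicate 1 are given below with and without them. The MV411 comparison does not use them.

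The targeted gene was examined first. CARM1 (ENSG00000142453, GRCh38 chr19:10871513-10923070, plus strand) stood at 21.5, 21.2 and 22.4 CPM in the scramble libraries and at 5.32, 5.77 and 5.83 CPM in the hairpin 1 libraries. The groups did not overlap and each was tight. The log2 fold change was -1.94 ± 0.17 (SE; edgeR quasi-likelihood test, Benjamini-Hochberg adjusted p = 0.0011). With hairpin 2, CARM1 stood at 2.47, 3.51 and 2.37 CPM, lower than with hairpin 1 by a direct comparison (log2 difference -1.02 ± 0.18, adjusted p = 0.0046).

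The other protein arginine methyltransferases were read beside CARM1. The list used also holds genes that are not named PRMT. None of its other 12 tested members was called with hairpin 1, and the list's median log2 fold change, CARM1 included, was -0.03. PRMT1, which deposits most asymmetric dimethylarginine in cells, stood at 131, 121 and 155 CPM with scramble and at 135, 133 and 143 CPM with hairpin 1. PRMT5, the main symmetric enzyme, stood at 54.8, 42.4 and 50.1 CPM with scramble and 56.8, 50.2 and 54.4 CPM with hairpin 1. Both sets of values overlapped. In the direct comparison of hairpins, PRMT1 (log2 difference -0.51), PRMT3 (-0.87), PRMT5 (-0.65) and PRMT7 (-0.58) were lower with hairpin 2 and PRMT2 was higher (0.58), with adjusted p from 0.012 to 0.037.

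**Figure D1:**
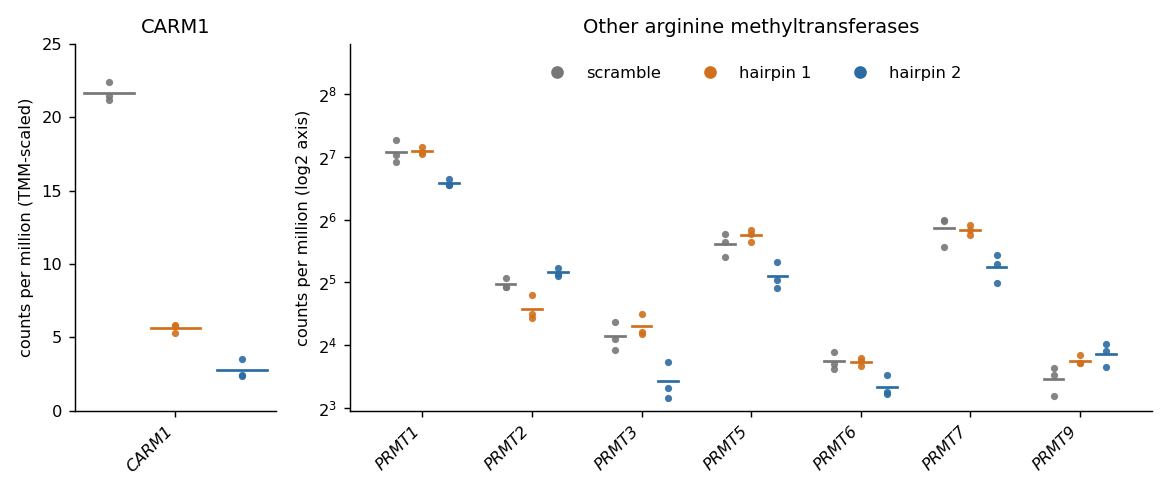
CARM1 (left, linear axis from 0) and 7 other arginine methyltransferases (right, log2 axis) in each MV411 library, in CPM. Points are libraries and bars are group means of 3. CARM1 stood at 21.2 to 22.4 with scramble, 5.32 to 5.83 with hairpin 1 and 2.37 to 3.51 with hairpin 2.

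Over all genes, hairpin 1 changed 1159 of 17816 genes at an adjusted p under 0.05 (6.51%). Of these, 423 were higher (2.37%) and 736 lower (4.13%), and 210 of the higher and 487 of the lower genes moved by more than 2-fold. Counts of called list members below are to be read against these shares. The median log2 fold change of all genes tested was -0.003. Same-numbered libraries of the groups deviated together, and with the replicate number as a block the counts were 926 higher and 1324 lower. Without hairpin 1 replicate 1, 2 or 3 the total was 341, 540 or 605, and without scramble replicate 1 or 3 it was 725 or 438.

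Promoter sequences of 6 genes that changed with hairpin 1 are shown here because each holds, upstream of its start, the letters of an element known for its group. They are the 120 bases before the RefSeq start (GRCh38.p14), written 5′ to 3′ on the gene's own strand, with the matched letters in capitals. GINS2 (chr16:85688955-85689074, minus strand) encodes a subunit of the replicative helicase and CDC25A (chr3:48188418-48188537, minus strand) a phosphatase that activates cyclin-dependent kinases; the capitals mark an E2F motif, on the reverse strand in GINS2. INCENP (chr11:62123891-62124010, plus strand) encodes a scaffold of the AURKB complex, and the capitals mark the cell cycle homology region (CHR). EGR1 (chr5:138465359-138465478, plus strand) is an immediate early transcription factor, with a pair of CArG boxes, the element bound by serum response factor. IFITM3 (chr11:320861-320980, minus strand) and LGALS3BP (chr17:78979924-78980043, minus strand) are interferon-induced, and the capitals mark the core of the interferon-stimulated response element.
GINS2: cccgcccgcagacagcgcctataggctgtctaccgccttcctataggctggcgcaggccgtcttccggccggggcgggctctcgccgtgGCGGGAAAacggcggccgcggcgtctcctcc
CDC25A: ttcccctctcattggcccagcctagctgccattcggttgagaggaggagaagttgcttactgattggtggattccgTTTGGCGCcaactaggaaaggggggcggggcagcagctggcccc
INCENP: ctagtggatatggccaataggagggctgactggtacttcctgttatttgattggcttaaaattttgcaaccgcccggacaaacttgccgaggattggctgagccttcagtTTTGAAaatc
EGR1: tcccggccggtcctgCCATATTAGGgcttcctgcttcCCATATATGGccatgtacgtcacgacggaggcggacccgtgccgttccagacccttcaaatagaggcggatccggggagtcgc
IFITM3: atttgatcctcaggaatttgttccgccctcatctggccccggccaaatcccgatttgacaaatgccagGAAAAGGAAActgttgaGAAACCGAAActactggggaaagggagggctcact
LGALS3BP: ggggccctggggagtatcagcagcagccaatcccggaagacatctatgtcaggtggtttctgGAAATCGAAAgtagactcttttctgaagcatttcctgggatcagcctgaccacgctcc

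The motifs were counted on both strands of the windows from 250 bases before to 50 bases after each RefSeq start, and a gene counted once if any of its windows held one. The E2F motif (TTTCCCGC, TTTCGCGC, TTTGCCGC or TTTGGCGC) was in 3.31% of all 35116 windows and in 6.48% of the 10422 tested genes with a window. It was in 25 of 45 genes of the E2F and DNA replication list (55.6%) and in 3 of 36 mitosis genes (8.33%). The CHR (TTTGAA) was in 15.2% of windows and 14.0% of tested genes, in 27 of 36 mitosis genes (75.0%) and in 2 of 45 replication genes (4.44%). Of the genes that fell with hairpin 1, 16.2% of 513 with a window held the E2F motif and 24.8% the CHR, and of the 251 that rose, 4.78% and 15.5%. The interferon element core (GAAANNGAAA) was in 3.57% of windows, in 4.17% of tested genes and in 28 of 42 interferon genes (66.7%). The CArG box was in 1.29% of windows, in 1.53% of tested genes and in 3 of 25 immediate early genes (12%). Of the 251 genes that rose, 5.18% held the interferon core and 1.99% the CArG box, near the shares of all tested genes. Of the 513 that fell, 3.31% and 2.34% did. None of the spelled motifs contains another, and a match describes letters only.

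The largest group of changes was a fall of genes for DNA replication and cell division. Of the 54 tested genes of the E2F and DNA replication list, 50 fell and none rose, against 4.13% of all genes lower, and the list's median log2 fold change was -1.95. Of the 42 mitosis genes, 40 fell and none rose, with a median of -2.47. Of 58 replication-dependent histone genes, whose transcripts are made in S phase, 49 fell (median -1.93), and of 33 DNA repair genes 22 fell (median -1.27). These histone genes are near-identical in sequence, so the share of reads given to each is uncertain.

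CDC45 (chr22:19479459-19520612, plus strand), which with the MCM and GINS proteins forms the replicative helicase, had the largest fall among genes with a mean log2 CPM of at least 2. It stood at 23.4, 10.6 and 21.7 CPM with scramble and at 1.33, 1.30 and 1.82 CPM with hairpin 1 (log2 fold change -3.64 ± 0.37, adjusted p = 0.0015). GINS2, whose promoter is printed above, stood at 20.5, 9.79 and 19.4 CPM with scramble and at 1.78, 2.08 and 2.43 CPM with hairpin 1 (-2.98 ± 0.29, adjusted p = 0.0012). Neither gene's groups overlapped, and scramble replicate 2 was the lowest scramble library for both. UHRF1, which couples DNA methylation to replication, had the smallest p of the list at 90.0, 59.3 and 102 against 14.7, 14.7 and 15.7 CPM (-2.48 ± 0.19, adjusted p = 0.00092). The helicase subunit MCM5 (-2.24 ± 0.22) and the histone chaperone CHAF1B (-3.29 ± 0.32) fell too. The 4 members that were not called were PCNA (-0.64), DUT (-0.68), POLD1 (-0.97) and RPA2 (0.12).

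Among mitotic genes, the kinase AURKB (chr17:8204733-8210600, minus strand) stood at 22.6, 8.11 and 17.6 CPM with scramble and at 1.60, 1.27 and 1.26 CPM with hairpin 1 (-3.54 ± 0.39, adjusted p = 0.0021). MYBL2, a transcription factor of the complex that binds the CHR, stood at 45.5, 15.9 and 36.6 against 2.81, 2.13 and 3.90 CPM (-3.47 ± 0.43, adjusted p = 0.0028). INCENP fell less, from 32.0, 18.1 and 29.9 to 9.58, 9.63 and 7.70 CPM (-1.57 ± 0.22, adjusted p = 0.0034). The kinetochore genes SPC24 (-3.37) and SKA1 (-3.12) were among the 12 largest falls of genes with a mean log2 CPM of at least 2 over the 6 libraries. So were the nucleotide synthesis genes TK1 (-3.31) and RRM2 (-3.09), the histone chaperone ASF1B (-3.10), TCF19 (-3.40) and the histone genes HIST1H4I (-3.46), HIST1H3G (-3.37) and HIST1H2BJ (-3.19). KIF11 and ECT2 were the mitosis genes not called. Without hairpin 1 replicate 1, 2 or 3, 14, 13 or 16 mitosis genes were called, and without scramble replicate 1 or 3, 22 or 17. Scramble replicate 2 stood apart from the other scramble libraries: averaged over list members, its log2 level lay at -0.60 relative to the group mean for the replication list and at -0.89 for the mitosis list, against 0.14 to 0.74 in the others, and without it 42 mitosis genes and 1185 genes in all were called. Replication genes were called in 40 to 52 cases over the same omissions. DNA repair genes were called in 10, 11 and 12 cases without hairpin 1 replicate 1, hairpin 1 replicate 2 and scramble replicate 3.

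DNA repair genes that fell included the recombination gene RAD54L (-2.71 ± 0.35) and the Fanconi anaemia genes FANCA (-1.31 ± 0.15) and FANCC (-1.84 ± 0.27), all with an adjusted p of at most 0.0041. ATM (0.21), ATR (-0.12) and MRE11 (0.23) were among the 11 repair genes not called. Of 22 cyclin-dependent kinase inhibitors, G1 cyclins and their regulators, 5 fell and none rose: the named ones were CDKN2C (-1.84 ± 0.22), CCNE2 (-2.27 ± 0.39), CDC25A (-1.41 ± 0.29) and CDK2 (-1.27 ± 0.27). With the replicate block 4 rose and 9 fell, and without hairpin 1 replicate 1, 2 or 3 or scramble replicate 1 or 3, 2 fell. The inhibitor CDKN1A stood at 94.3, 69.0 and 46.4 CPM with scramble and at 137, 92.6 and 112 CPM with hairpin 1 (0.70 ± 0.25, adjusted p = 0.14).

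The fall of these genes was compared directly between hairpins. Between hairpin 2 and hairpin 1, 2046 of 17816 genes differed (11.5%), 1044 higher (5.86%) and 1002 lower (5.62%) with hairpin 2. Of the 54 replication genes 4 were lower with hairpin 2 and none higher, and of the 42 mitosis genes and the 58 histone genes none differed by this edgeR test. The median difference was -0.06 over replication genes and 0.39 over mitosis genes. CDC45 differed by -0.30 ± 0.38 (adjusted p = 0.68) and AURKB by 0.65 ± 0.39 (adjusted p = 0.34), and a p that misses the threshold does not show equal levels. KIAA0101, a PCNA-binding replication factor, was lower with hairpin 2 (-2.24 ± 0.38, adjusted p = 0.0044), as were UHRF1 (-0.70 ± 0.19, adjusted p = 0.035) and CDK2 (-1.02 ± 0.27, adjusted p = 0.035).

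**Figure D2:**
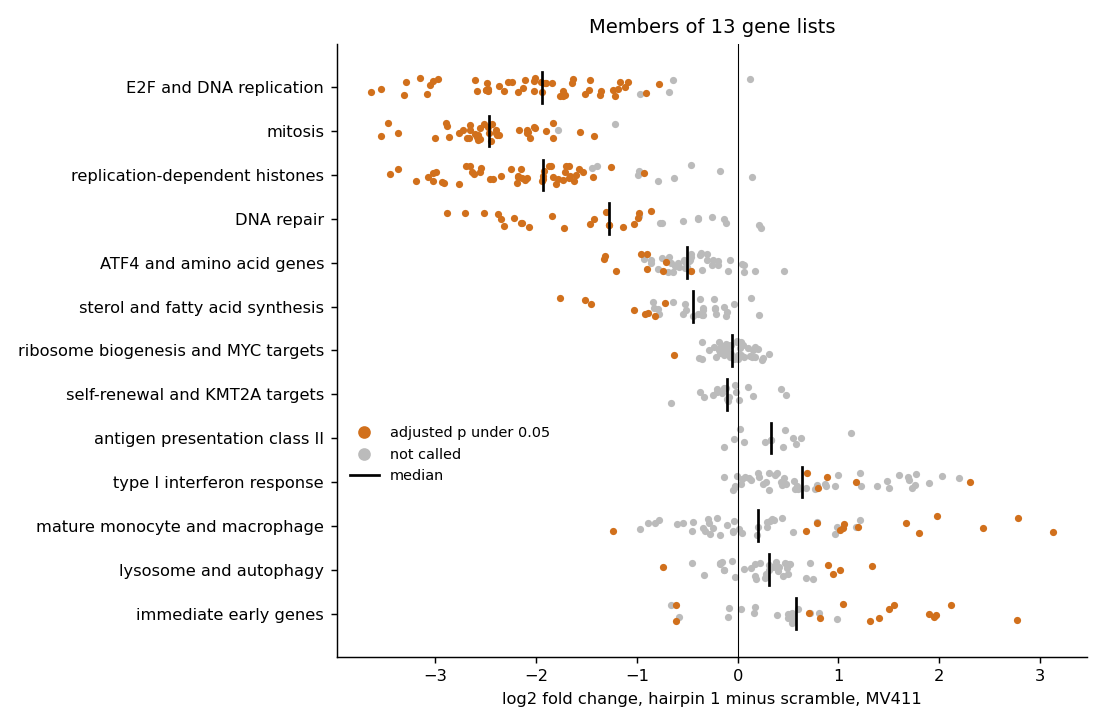
Log2 fold change of each tested member of 13 gene lists, hairpin 1 minus scramble in MV411, with 1 point per gene. Filled orange points passed an adjusted p of 0.05, grey points did not, and black bars are list medians. The 4 cell division lists have medians of -1.27 to -2.47, and the class II list has no called member.

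Genes that rose with hairpin 1 included a group that responds within minutes to growth factors and stress. Of 32 tested immediate early genes, 12 rose and 2 fell, against 2.37% of all genes higher, and the list's median was 0.57. The 12 were SGK1, FOSB, EGR1, JUN, KLF2, RHOB, IER3, BTG2, DUSP1, KLF4, ZFP36 and IER5, with log2 fold changes from 0.71 to 2.77. The count fell to 7 without hairpin 1 replicate 3 or scramble replicate 3, and the falls of FOSL2 and SRF were both lost without hairpin 1 replicate 1 or 2 or scramble replicate 3.

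SGK1 (chr6:134169246-134318112, minus strand), a kinase induced by serum and glucocorticoids, stood at 4.30, 3.52 and 0.941 CPM with scramble and at 25, 12.3 and 22.1 CPM with hairpin 1 (2.77 ± 0.47, adjusted p = 0.0072). FOSB, a subunit of the AP-1 transcription factor, stood at 2.21, 2.72 and 4.95 against 16.1, 10.1 and 17 CPM (2.12 ± 0.37, adjusted p = 0.0078). JUN, its partner, stood at 2.40, 4.61 and 4.34 against 12.4, 11.8 and 19.8 CPM (1.95 ± 0.29, adjusted p = 0.0043). None of these genes overlapped between groups.

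EGR1, whose promoter is printed above, stood at 0.903, 1.29 and 1.18 CPM with scramble and 4.08, 3.46 and 5.77 CPM with hairpin 1 (1.97 ± 0.30, adjusted p = 0.0047). KLF2, a zinc finger factor of quiescence, rose from 0.467, 0.803 and 0.628 to 1.90, 2.16 and 3.10 CPM (1.90 ± 0.29, adjusted p = 0.0053). BTG2, an antiproliferative gene that is also a p53 target, had the smallest p, at 21.9, 21.1 and 19.0 against 60.6, 50.7 and 53.2 CPM (1.41 ± 0.14, adjusted p = 0.0015). The 2 members that fell were FOSL2 (-0.62 ± 0.12) and SRF (-0.61), which encodes the factor that binds CArG boxes. FOS itself was not called, at 11.1, 9.79 and 20.7 against 24.9, 18.0 and 25.6 CPM (0.72 ± 0.29, adjusted p = 0.19).

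Part of the list differed between hairpins. With hairpin 2 the immediate early list had a median of 0.01 against scramble, and in the direct comparison 14 of 32 members were lower with hairpin 2 and none higher, against 5.62% of all genes. SGK1 stood at 3.73, 4.55 and 2.34 CPM with hairpin 2 (difference from hairpin 1 -2.49 ± 0.47, adjusted p = 0.0070). EGR1 stood at 0.858, 0.962 and 0.499 CPM (-2.53 ± 0.31, adjusted p = 0.0010), KLF2 at 0.594, 0.629 and 0.683 CPM (-1.90 ± 0.30, adjusted p = 0.0029) and FOSB at 1.95, 3.37 and 4.81 CPM (-2.08 ± 0.37, adjusted p = 0.0055). BTG2 stood at 60.1, 45.4 and 49.7 CPM and did not pass the test between hairpins (-0.09 ± 0.14, adjusted p = 0.76).

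Among chaperone and stress genes, HSPA2 rose from 3.21, 4.61 and 3.45 to 15.9, 12.9 and 17 CPM (2.02 ± 0.29, adjusted p = 0.0041) and stood at 3.17, 5.14 and 2.08 CPM with hairpin 2. HSPA1B, an inducible heat shock protein with a near-identical copy in HSPA1A, rose by 1.42 ± 0.30 (adjusted p = 0.018) and was lower with hairpin 2 (-1.64 ± 0.30, adjusted p = 0.0064). Of the 34 unfolded protein response and chaperone genes, 1 rose and 1, SDF2L1 (-0.69), fell (4 fell with the replicate block). The main counts were near the shares of all genes (2.37% higher and 4.13% lower). Of 34 p53 targets, 4 rose, against 2.37% of all genes, and none fell: BTG2, PLK2 (1.28 ± 0.24), RRM2B (0.85 ± 0.22) and TP53INP1 (0.94 ± 0.25). With the replicate block 9 rose. Only 1 rose without hairpin 1 replicate 1, and 2 rose without hairpin 1 replicate 2 or 3 or scramble replicate 3.

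In the BCL2 family, which sets the threshold for apoptosis, 2 of 13 tested genes rose and 1 fell, against 2.37% and 4.13% of all genes. The list's median was 0.08. The proapoptotic genes BCL2L11 (0.67 ± 0.13, adjusted p = 0.012) and BIK (0.78 ± 0.20, adjusted p = 0.048) rose and BAK1 fell (-0.59 ± 0.13, adjusted p = 0.019). With any 1 of the 6 libraries left out at most 1 rose, and with the replicate block 2 rose and 2 fell. All 3 differed between hairpins: BCL2L11 (-0.66) and BIK (-0.75) were lower and BAK1 (0.72) higher with hairpin 2. BCL2 stood at 201, 188 and 212 CPM with scramble and at 102, 126 and 151 CPM with hairpin 1, groups that did not overlap (-0.67 ± 0.21, adjusted p = 0.086; 0.0093 with the replicate block). It was lower with hairpin 2, at 35.9, 39.2 and 60.5 CPM (difference -1.48 ± 0.21, adjusted p = 0.0017).

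**Figure D3:**
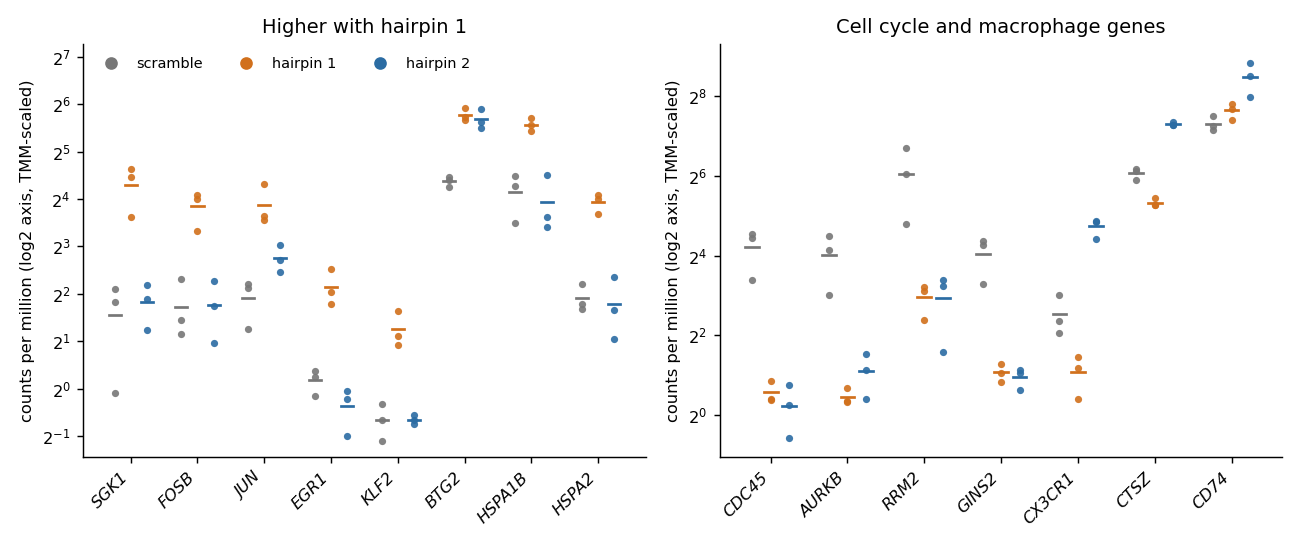
CPM of 15 genes in each MV411 library (log2 axes), with 1 point per library and bars at group means of 3. SGK1, FOSB, EGR1, KLF2 and HSPA2 are higher with hairpin 1 than in both other groups, CDC45 and GINS2 are low with both hairpins, and CX3CR1 and CTSZ are low with hairpin 1 and high with hairpin 2.

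Monocyte and macrophage genes split with hairpin 1. Of 49 tested members 12 rose and 1 fell, against 2.37% and 4.13% of all genes, and the median was 0.20. CD68, a lysosomal protein of macrophages, stood at 43.9, 44.4 and 45.6 CPM with scramble and at 127, 93.4 and 84.8 CPM with hairpin 1 (1.19 ± 0.17, adjusted p = 0.0040). The complement component C3 stood at 4.02, 4.84 and 6.71 against 15, 20.4 and 19.0 CPM (1.8 ± 0.27, adjusted p = 0.0049). The NADPH oxidase subunit NCF1 rose by 1.98 ± 0.26 (adjusted p = 0.0028), but its near-identical copies NCF1B (2.06) and NCF1C (2.19) moved with it, so which copy rose is uncertain. The others that rose included the receptors C3AR1, TLR4, CD36 and FCAR, the signalling adaptor TYROBP and the complement gene C1QA. The replicate block gave 15 higher and 3 lower. The number that rose was 7 without hairpin 1 replicate 1 or 2 or scramble replicate 3.

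With hairpin 2 the list's median against scramble was 1.51, and in the direct comparison 30 of 49 members were higher with hairpin 2 and none lower, against 5.86% of all genes. A pair of genes outside this list had hairpins on opposite sides of scramble. CX3CR1 (chr3:39263494-39281735, minus strand), the receptor for fractalkine on patrolling monocytes, stood at 4.14, 5.11 and 8.04 CPM with scramble, at 1.33, 2.28 and 2.72 CPM with hairpin 1 and at 21.6, 28.9 and 29.4 CPM with hairpin 2. It fell with hairpin 1 (-1.45 ± 0.30, adjusted p = 0.017) and was higher with hairpin 2 than with hairpin 1 by 3.65 ± 0.31 (adjusted p = 0.00020). CTSZ, a lysosomal protease, stood at 71.7, 59.6 and 70.2 CPM with scramble, 38.4, 43.4 and 38.4 CPM with hairpin 1 and 165, 155 and 156 CPM with hairpin 2 (difference 1.98 ± 0.13, adjusted p = 7.6e-05). Neither gene's 3 groups overlapped.

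Among genes with a mean log2 CPM of at least 2 over the 6 hairpin libraries, the other largest differences in favour of hairpin 2 were DNASE2 (3.73 ± 0.33), a lysosomal nuclease, LRP1 (3.32 ± 0.57), a scavenger receptor, ABCG1 (3.27 ± 0.41), a cholesterol exporter, and SIGLEC1 (3.26 ± 0.60), a macrophage lectin. None of the 4 was called with hairpin 1 against scramble, with log2 fold changes of -0.30, -0.25, -0.93 and 1.21. By the same limit, the largest in favour of hairpin 1 were SGK1, PRSS57 (-2.38 ± 0.41), a granule protease, KIAA0101, MT1G (-2.18 ± 0.60), a metallothionein, and HSPA2. PRSS57 was at 43.2, 96.9 and 66.6 CPM with scramble and 76.4, 91.1 and 68.3 CPM with hairpin 1, and at 20.4, 19.2 and 6.02 CPM with hairpin 2.

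HLA class II genes, which present antigen on mature monocytes, had the largest median difference between hairpins of the lists that are not cell type markers (1.81). None of the 13 tested was called with hairpin 1 by edgeR or DESeq2, 2 had an unadjusted p under 0.05, and the median was 0.33. With hairpin 2 the median was 2.33, and 11 of 13 were higher with hairpin 2 than with hairpin 1, against 5.86% of all genes. HLA-DRA stood at 22.3, 28.1 and 32.0 CPM with scramble, 39.7, 55.9 and 24.8 CPM with hairpin 1 and 173, 211 and 105 CPM with hairpin 2. HLA-DMA, which loads peptide, stood at 5.6, 6.20 and 6.42, at 9.01, 11.4 and 6.88, and at 21.5, 24.7 and 18.4 CPM in the same order (0.58 ± 0.20, adjusted p = 0.12 with hairpin 1).

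Of 52 interferon response genes, 5 rose with hairpin 1, against 2.37% of all genes, and none fell, with a median of 0.64. LGALS3BP stood at 1.21, 2.18 and 2.15 CPM with scramble and 6.68, 7.35 and 13.7 CPM with hairpin 1 (2.31 ± 0.31, adjusted p = 0.0032). IFIH1, a sensor of double-stranded RNA, stood at 7.91, 9.21 and 10.9 against 18.0, 20.2 and 25 CPM (1.17 ± 0.22, adjusted p = 0.0097). IFITM3 (0.89 ± 0.15), LY6E (0.80 ± 0.18) and IFITM1 (0.69) were the others. The hairpin 1 libraries were uneven: the mean log2 difference of the list from the scramble mean was 0.07 in replicate 1, 0.36 in replicate 2 and 1.41 in replicate 3. In the direct comparison 23 of 52 were higher with hairpin 2, against 5.86% of all genes, and none lower. With hairpin 2 the list's median against scramble was 1.71. With any 1 library but scramble replicate 2 left out, or with all 27 libraries fitted, 3 rose, and 15 rose with the replicate block on the 6 libraries alone and 25 without the filter on low counts.

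Of 27 NF-kB targets, 5 rose, against 2.37% of all genes, and none fell: BIRC3 (1.87 ± 0.25), IER3 (1.5 ± 0.25), ICAM1 (1.05 ± 0.22), SOD2 (0.67 ± 0.16) and NFKBIA (0.67). BIRC3, an inhibitor of apoptosis, stood at 1.84, 2.18 and 1.79 CPM with scramble and 6.47, 8.04 and 6.77 CPM with hairpin 1. With 1 library left out at a time 2 or 3 rose. Among 20 class I genes 1, the immunoproteasome subunit PSMB9, fell (-0.91 ± 0.19, adjusted p = 0.017) and none rose. That count was near the share of all genes lower (4.13%). PSMB9 was higher with hairpin 2 than hairpin 1 (0.86 ± 0.19). In the blocked fit 2 of the 20 rose. The fall of PSMB9 was lost without hairpin 1 replicate 1, 2 or 3 or scramble replicate 3.

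The largest rise among genes with a mean log2 CPM of at least 2 and no overlap between groups was that of a growth factor. IGF1 (chr12:102395874-102481744, minus strand) stood at 14.4, 12.2 and 8.42 CPM with scramble, at 102, 104 and 40.1 CPM with hairpin 1 (2.82 ± 0.37, adjusted p = 0.0029) and at 270, 192 and 153 CPM with hairpin 2. In its list of 31, TGFBR2 (0.62), the feedback inhibitor SOCS3 (1.12) and IL6R (0.51) also rose and PIM1 (-0.67) fell, with 7 and 2 under the replicate block, and 2 rose with any 1 library but scramble replicate 2 left out. Among 19 integrins and adhesion genes, ICAM1 and ITGA5 (0.62) rose and ICAM3 (-0.69) fell, with 4 and 3 under the block, and at most 1 rose and none fell with any 1 of the 6 libraries left out. TMEM176B (1.96 ± 0.37), CRISPLD2 (1.92 ± 0.27) and COL6A1 (2.10 ± 0.36) complete the 12 largest rises, and COL6A1 was lower with hairpin 2 (-1.49 ± 0.35, adjusted p = 0.021).

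**Figure D4:**
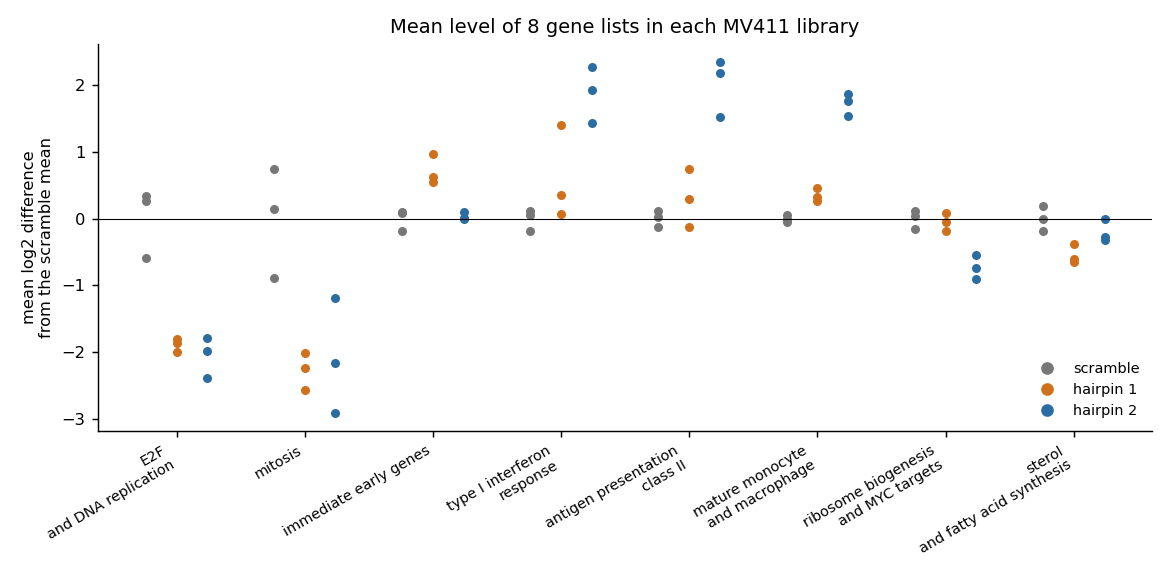
Mean log2 difference from the scramble mean (CPM + 0.1) over the members of 8 gene lists, with 1 point per MV411 library. Replication and mitosis genes are low in all 6 hairpin libraries, immediate early genes are high with hairpin 1 (0.55 to 0.97), and class II and macrophage genes are high with hairpin 2.

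Few genes of the immature state and of growth were called with hairpin 1. Of 42 ribosome biogenesis and MYC target genes, only the ribosome assembly gene NLE1 was called (-0.63 ± 0.12, adjusted p = 0.012; 2 genes fell with the replicate block), and the median was -0.06. With hairpin 2 the median was -0.74, and 24 of 42 were lower with hairpin 2 than with hairpin 1, against 5.62% of all genes. MYC, the transcription factor that drives these genes, stood at 236, 239 and 262 CPM with scramble, 221, 228 and 247 CPM with hairpin 1 and 105, 102 and 114 CPM with hairpin 2 (hairpin 1 against scramble -0.08 ± 0.12; hairpin 2 against hairpin 1 -1.12, adjusted p = 0.00064). The first pair of groups overlapped and the last did not.

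None of 19 self-renewal and KMT2A target genes was called with hairpin 1 by edgeR without the replicate block (3 had an unadjusted p under 0.05), while 1 rose and 2 fell both with the block and by DESeq2, and 6 were lower with hairpin 2 than with hairpin 1. HOXA9, a KMT2A target, stood at 29.6, 30.8 and 31.1 CPM with scramble and 27.1, 31.5 and 31.4 CPM with hairpin 1. CDK6, another, stood at 446, 327 and 320 against 484, 508 and 529 CPM (0.48 ± 0.15, adjusted p = 0.097; 0.035 with the replicate block) and was lower with hairpin 2 (-1.02 ± 0.15, adjusted p = 0.0023). Of 22 primary granule and immature myeloid genes, none was called by edgeR without the replicate block or by DESeq2, 6 had an unadjusted p under 0.05, and 3 rose with the block. CLEC11A, a growth factor of progenitors, stood at 117, 198 and 162 CPM with scramble, 230, 287 and 213 CPM with hairpin 1 and 79.4, 87.8 and 59.2 CPM with hairpin 2.

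Metabolic genes fell in a pair of lists. Of 33 sterol and fatty acid synthesis genes, 8 fell, against 4.13% of all genes, and none rose, with a median of -0.45. With the replicate block 14 fell. DHCR7, the last enzyme of cholesterol synthesis, stood at 11.5, 7.62 and 10.7 CPM with scramble and at 3.45, 2.68 and 4.28 CPM with hairpin 1 (-1.52 ± 0.22, adjusted p = 0.0041). FADS1, a fatty acid desaturase, stood at 91.7, 84.2 and 160 against 22.9, 28.6 and 47.3 CPM (-1.77 ± 0.36, adjusted p = 0.015). FDFT1 (-0.89), LSS (-0.82), EBP (-1.02), FDPS (-0.72), ACAT2 (-0.93) and FADS2 (-1.46) were the others. Of the 33, 8 were higher with hairpin 2 than with hairpin 1, against 5.86% of all genes, and none lower. The number that fell was 1 without hairpin 1 replicate 1, and 2 without hairpin 1 replicate 2 or scramble replicate 3.

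Of 47 ATF4 and amino acid genes, 9 fell, against 4.13% of all genes, and none rose, with a median of -0.50. With the replicate block 27 fell. Hairpin 1 replicate 3 stood apart: averaged over the list, its log2 level relative to the scramble libraries was -0.09, within their range of -0.23 to 0.12, against -0.75 and -0.79 in replicates 1 and 2. The 9 were the serine synthesis gene PHGDH (-1.33), SHMT1 (-1.21), SHMT2 (-0.90), PYCR1 (-0.46), PCK2 (-1.32), the transporters SLC7A5 (-0.90) and SLC1A4 (-0.71) and the tRNA synthetases AARS (-0.96) and CARS (-0.74). PCK2 stood at 83.2, 61.2 and 83.1 CPM with scramble and 20.6, 24.4 and 46.2 CPM with hairpin 1. The count was 0 without hairpin 1 replicate 1 or scramble replicate 3, 1 without hairpin 1 replicate 2 and 3 without scramble replicate 1.

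Smaller numbers of lysosome and iron genes rose. Of 40 lysosome and autophagy genes 4 rose (11 with the replicate block) and CTSZ fell, against 2.37% of all genes higher and 4.13% lower. PSAP, the saposin precursor, stood at 103, 130 and 149 against 348, 272 and 345 CPM (1.34 ± 0.19, adjusted p = 0.0038), and the autophagy genes SQSTM1 (0.90) and GABARAPL1 (0.95) rose too. Of 22 NRF2 and iron genes 3 rose (11 with the replicate block): the ferritin genes FTH1 (1.42 ± 0.19) and FTL (0.78 ± 0.20), which have processed copies elsewhere in the genome, and HMOX1 (2.85 ± 0.46). FTH1 stood at 158, 146 and 188 CPM with scramble and 457, 346 and 516 CPM with hairpin 1. Of 31 glycolysis and hypoxia genes 3 rose, among them BNIP3 (0.91 ± 0.16), and 2 fell, among them ALDOC (-1.28 ± 0.17), with a median of -0.11; with the replicate block 5 rose and 5 fell. Of 17 LXR targets only 1, CD36, rose (1.05 ± 0.24), against 2.37% of all genes, and with the block 2 rose and 2 fell.

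Splicing factors and chromatin partners were read because CARM1 methylates members of both. Of 47 splicing factor genes 6 fell and none rose (14 fell with the replicate block), with a median of -0.31, and the named ones were SNRPA1 (-0.66), SNRPA (-0.49), SNRPC (-0.59) and HNRNPM (-0.53). The count was 0 without hairpin 1 replicate 1 or 3 or scramble replicate 1 or 3, and 1 without hairpin 1 replicate 2. Of 30 SWI/SNF and CARM1 partner genes, SMARCB1 fell (-0.57 ± 0.12, adjusted p = 0.016) and none rose, against 4.13% of all genes lower. With the replicate block 1 rose and 2 fell, and with any 1 library but scramble replicate 2 left out none fell. Of 71 nuclear oxidative phosphorylation genes 3 fell, a share near the 4.13% of all genes: COX6A1 (-0.89), NDUFB10 (-0.46) and COX8A (-0.49). With the replicate block 7 fell and 1 rose, and 1 fell with any 1 library but scramble replicate 2 left out (6 without that one).

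A further set of genes was lower with hairpin 1 than with scramble and than with hairpin 2. Of the 736 genes that fell with hairpin 1, 139 were higher with hairpin 2 than with hairpin 1; both comparisons use the same hairpin 1 libraries, so this count alone describes those libraries. SKNO1, a leukaemia line with a RUNX1 fusion, gave separate libraries of both hairpins, in which 833 of 18430 genes were higher with hairpin 2 than with hairpin 1 (4.52%). Of the 125 of these genes tested there, 50 were higher with hairpin 2 in SKNO1. In 39 of the 50, all 3 SKNO1 hairpin 1 libraries were below all 3 SKNO1 scramble libraries. Of the 50, 15 were called lower than scramble, against 0.277% of all genes tested there. The 50 were chosen by those same SKNO1 hairpin 1 libraries, which favours low values in them, so both counts describe these libraries only. The share of all SKNO1 genes with such a separation was not counted. The 5 shown next were chosen after their values were seen.

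TMED10 (chr14:75131470-75176631, minus strand), a cargo receptor of the early secretory pathway, stood in MV411 at 303, 219 and 334, at 102, 99.4 and 123, and at 283, 178 and 399 CPM with scramble, hairpin 1 and hairpin 2. In SKNO1 it stood at 156, 185 and 150, at 36.8, 66.8 and 73.5, and at 126, 131 and 104 CPM in the same order. Its log2 fold change with hairpin 1 was -1.40 ± 0.27 in MV411 (adjusted p = 0.012) and -1.47 ± 0.23 in SKNO1 (adjusted p = 0.029), and with hairpin 2 it was 0.01 and -0.45. In both lines the hairpin 1 libraries lay below every other library.

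The translation factor EIF2A changed by -1.29 in MV411 and -1.37 in SKNO1 with hairpin 1 and by 0.16 and -0.19 with hairpin 2. The small GTPase CDC42 changed by -1.08 and -1.18 with hairpin 1 and by 0.31 and 0.40 with hairpin 2. BTBD1 changed by -1.07 and -1.33, against 0.18 and 0.29. CALM3, a calmodulin gene, changed by -0.88 (adjusted p = 0.0052) and -0.77 (adjusted p = 0.057 in SKNO1), against 0.31 and 0.24. In MOLM13, TMED10 stood at 206, 79.9 and 86.2 CPM in the libraries labelled hairpin 1 replicates 1 to 3 and at 77.2, 108 and 222 CPM in those labelled hairpin 2, with scramble at 196, 177 and 140 CPM. The library labelled hairpin 2 replicate 1 was thus at the level of hairpin 1 replicates 2 and 3. Whether hairpin 1 acts on any of these transcripts directly was not tested.

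**Figure D5:**
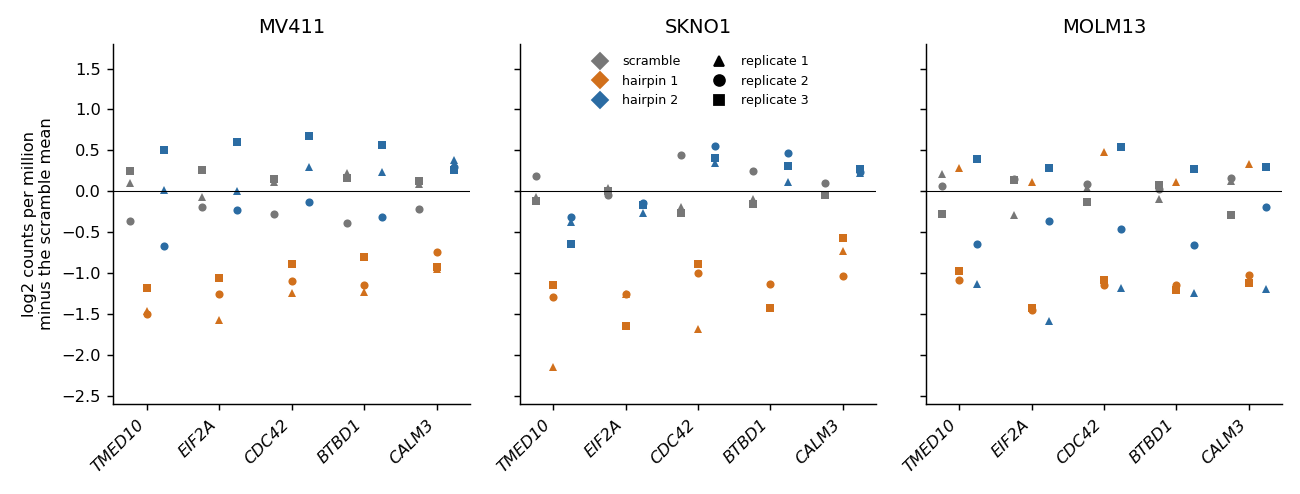
Log2 CPM minus the scramble mean of the line for 5 genes in 3 cell lines, with 1 point per library, shaped by replicate number. Hairpin 1 libraries (orange) are low in MV411 and SKNO1, and the hairpin 2 libraries (blue) lie above them. In MOLM13, TMED10 stood in the replicate 1 libraries (triangles) at 206 CPM in that labelled hairpin 1 and 77.2 CPM in that labelled hairpin 2.

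The response of MV411 to hairpin 1 was last set against that of the other lines. In MOLM13, 378 of 17732 genes rose with hairpin 1 (2.13%) and 753 fell (4.25%). Without the pair of MOLM13 libraries that went against their labels, 230 of 18270 rose and 474 fell. In SKNO1 47 of 18430 rose (0.255%) and 51 fell (0.277%). Of the 736 genes that fell in MV411, 371 also fell in MOLM13, which is 50.4% of the MV411 and 49.3% of the MOLM13 list, and 1 was called higher. Of the 423 that rose, 99 also rose in MOLM13 (23.4% and 26.2%). Without that pair, 305 fell in both (41.4% and 64.3%) and 90 rose in both (21.3% and 39.1%). With SKNO1, 20 fell in both (2.72% and 39.2%) and 12 rose in both (2.84% and 25.5%).

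Replication and mitosis genes fell in MOLM13 as well. Of 54 replication genes 47 fell in MOLM13 (median -1.63; 44 and -1.56 without the pair), and of 42 mitosis genes all 42 fell (median -1.98; 40 and -1.83 without the pair). DNA repair genes fell in 22 of 33 cases (17 without the pair) and histone genes in 38 of 53 (11 without the pair, with a median of -1.70 against -1.85). In SKNO1 none of the replication and mitosis genes was called by edgeR, with medians of -0.45 and -0.45. There 1 of 33 DNA repair genes fell (list median -0.55), as did 1 of 57 histone genes (list median 0.04). CARM1 changed by -1.25 in SKNO1 against -1.94 in MV411. Immediate early genes rose in 8 of 33 cases in MOLM13, with or without the pair (median 0.47 or 0.35), and in 3 of 30 in SKNO1 (median 0.35). Macrophage genes rose in 11 of 50 cases in MOLM13 (median 1.24, or 6 cases and 0.60 without the pair). In SKNO1, 0 of 37 rose and 1 fell (median 0.06). Interferon response genes rose in 1 of 51 cases in MOLM13 (median -0.07), or in 0 of 52 without the pair (median -0.16). In SKNO1, 1 of 51 rose (median -0.15).

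The difference between the effects of hairpin 1 in MV411 and MOLM13 was tested by an interaction term over all 27 libraries. None of 21262 genes was called by edgeR (0%), with 1419 at an unadjusted p under 0.05, and none by limma-voom, against 33 by DESeq2. None was called without the pair of MOLM13 libraries either. With the replicate block 1 gene, SLFN11, a helicase-like gene of the DNA damage response, was called (MV411 minus MOLM13 -2.27 ± 0.30, adjusted p = 0.0069). Between the libraries labelled hairpin 2 and hairpin 1 in MOLM13, edgeR called 0% of 17732 genes (335 at an unadjusted p under 0.05), and none without replicate 1 of each (1739 of 18270 at an unadjusted p under 0.05).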

How the data were processed

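RNA was measured as whole-transcriptome sequencing of ribosomal RNA-depleted total RNA, stranded libraries, per the labels' protocols. Per the submitters' processing notes, STAR 2.5.3, RSEM (version not given) and GRCh38.p7 were used; the strand setting of the counting is not given in the sources used here. The authors deposited RSEM expected counts for 57992 genes in 27 columns, and every column was matched to a sample. Counts were rounded to whole numbers and analysed with edgeR 4.0.16 in R 4.3.3: filterByExpr (minimum count 10, minimum total 15), TMM scaling, quasi-likelihood F-tests (two-sided), Benjamini-Hochberg adjustment over all genes and a threshold of 0.05. The 9 MV411 libraries were fitted as 3 groups; the interaction used all 27. CPM are counts scaled to library size by TMM, except the summed CPM of cell type markers, which use the library total alone. Comparisons of levels are within a gene. The SE of an edgeR log2 fold change was derived from the test, as its absolute value divided by the square root of F. DESeq2 1.42.0 and limma 3.58.1 (voom) were alternatives. The fit was tested on simulated data.

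Same-numbered scramble and hairpin 1 libraries deviated together from their group means (r = 0.28, 0.44 and 0.29 over 10358 genes), so values with the replicate number as a block are given where they change a call or move a count by over 1.5 times. The labels do not say whether replicates were separate cultures, so p-values measure only the spread between these samples. The comparison and the gene lists were chosen with earlier results of these data known. Named genes were the arginine methyltransferases, the 12 largest called changes per direction with a mean log2 CPM of at least 2 and no overlap between groups, up to 4 called members (by p) of each list with 1 in the other direction, or 2 as values where none was called, and the 5 largest per direction between hairpins; other genes are named as list members or by their known role. Gene positions are from GENCODE 29 (17714 of 17816 tested genes matched) and promoters from RefSeq (GRCh38.p14). Precision is limited by 3 libraries a group. Some named genes are not reported here.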

Additional observations from a re-analysis of the deposited data

How the results depend on the processing

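Of genes changed by hairpin 1 (1159), DESeq2 called 1819, edgeR with no low-count filter 1913, edgeR with the replicate block 2250, and the block on the 6 libraries alone, an alternative added after seeing the data, 2262. Leaving out 1 library gave 341 to 1185. Other scaling, limma-voom, the 6 libraries, all 27, or 25 without the pair of MOLM13 libraries that went against their labels (added after seeing the data) kept the count within 1.5 times. Between hairpins (2046), the replicate block gave 3516 and leaving out 1 library 873 to 2105, with the lowest counts without hairpin 1 replicate 1 (873), hairpin 2 replicate 1 (958), hairpin 1 replicate 3 (1067) and hairpin 1 replicate 2 (1209); DESeq2 and no filter gave 2772 and 2764. For the interaction (0), DESeq2 gave 33, no filter 285 and the replicate block 1; leaving out 1 library gave 0 or 1, the 1 being MIR3142HG without MOLM13 hairpin 1 replicate 3, MOLM13 scramble replicate 2 or MV411 hairpin 1 replicate 2. Of the 127 named genes, 104 were called in the main fit. None of the 104 reversed direction in any alternative, and sign changes of genes never called were not counted. With 1 library left out 11 to 45 of the 104 lost their call (45 without hairpin 1 replicate 1, 40 without scramble replicate 3), as did 29 with all 27 libraries. The causes of these shifts were not tested.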

Other observations

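A group of genes outside the lists, chosen after their values were seen, was higher with hairpin 1 than with scramble and with hairpin 2 in MV411 (all adjusted p for the difference between hairpins at most 0.018). ID1, an inhibitor of basic helix-loop-helix factors, stood at 0.81, 0.736 and 0.555 CPM with scramble, 4.59, 4.84 and 6.65 CPM with hairpin 1 and 0.495, 0.814 and 0.237 CPM with hairpin 2 (2.94 ± 0.36, adjusted p = 0.0025 by edgeR). Its relative ID2 stood at 17.3, 17.3 and 18.1, at 31.9, 25.7 and 31.8, and at 17.6, 13.8 and 19.6 CPM (0.76 ± 0.16, adjusted p = 0.016). The Notch target HES1 changed by 2.54 ± 0.45, the G protein regulator RGS2 by 2.84 ± 0.39 and the stress gene GADD45B by 1.5 ± 0.19, and with hairpin 2 they changed by 0.63, -0.29 and -0.05. COL6A2, a collagen VI chain, changed by 2.52 ± 0.41 with hairpin 1 and by 0.46 with hairpin 2, while COL6A3 changed by 0.39 ± 0.38.

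Small nucleolar and Cajal body RNAs, which guide modification of other RNAs, rose in 13 of 151 tested cases (8.61%, against 2.37% of all genes) and fell in none. Their median log2 fold change was 0.70 with hairpin 1 and 0.32 with hairpin 2. Mitochondrial 12S ribosomal RNA, MT-RNR1, rose by 0.86 ± 0.18 (adjusted p = 0.019), and the signal recognition particle RNA RN7SL2 changed by 0.67 ± 0.18 (adjusted p = 0.052). Of the 2 mitochondrial ribosomal RNAs, 1 rose in the main fit and 2 with the replicate block or by DESeq2. Of 5 abundant structured RNAs, 0 were called in the main fit, and 4 rose with the replicate block or by DESeq2. Many small nucleolar and Cajal body RNAs lie in introns of host genes. Depletion or capture of short RNAs can vary between libraries, and the part of either in these rises was not tested.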
